A study of Homo sapiens with 6 samples.

Results

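The genes described here are 10 sensors and adaptors of cytosolic and endosomal nucleic acid sensing, RIGI, IFIH1, DHX58, MAVS, TLR3, EIF2AK2, CGAS, STING1, TBK1 and ADAR. They were chosen by gene name, and all 10 were found among the 19201 entries of the deposited count table and among the 19101 entries that passed the filter on low counts. The table covered H1299, a human cell line established from a non-small cell lung carcinoma, in 6 RNA-seq libraries: 3 of wildtype cells, called controls below, and 3 of cells that overexpressed lncBCAS1-4_1, a long non-coding RNA. For either group the labels give no further allele, agent, dose or time. They name no vector in the controls and do not say whether the overexpressing cells were a pool or 1 clone, so the overexpressed RNA and the procedure that introduced it cannot be told apart.

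Cells recognise foreign or misplaced nucleic acid by a small set of proteins. RIG-I (gene RIGI) and MDA5 (IFIH1) are helicases that bind double-stranded RNA in the cytosol and signal through the mitochondrial adaptor MAVS, and their relative LGP2 (DHX58) binds RNA but has no signalling domain of its own. TLR3 detects double-stranded RNA in endosomes, and the kinase PKR (EIF2AK2) answers the same ligand by halting translation. For DNA, cGAS makes a cyclic dinucleotide that activates the adaptor STING (STING1). The MAVS and STING branches meet at the kinase TBK1, which activates the transcription factor IRF3 and so the type I interferon genes. ADAR edits adenosine to inosine in double-stranded RNA and keeps the cell's own transcripts from being sensed. Several of these genes, among them RIGI, IFIH1, DHX58, EIF2AK2 and TLR3, are themselves known as interferon-stimulated genes.

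Total counts were 87393887 to 92780032 in the controls and 84531039 to 90102655 in the overexpressing libraries. No label says that the replicates were separate cultures, so p-values measure only how these samples vary, and that variation may be technical. Replicates differed by more than sampling noise, with a chi-square per degree of freedom of 11.6 between controls 1 and 2 and of 20.1 to 22.7 in every other pair of libraries of a group. The overexpressed RNA has no entry analysed here, and CYP24A1, which the series title places beside it, had 57 to 81 counts in the controls and 212102 to 299348 in the overexpressing libraries. Of 7 markers listed for the carcinoma line 4 were in the table, KRT7, KRT8, KRT18 and KRT19. They summed to 1261 to 1429 CPM (counts per 1e6 library counts) in the controls and 1677 to 1890 CPM in the overexpressing cells. KRT18 and KRT8 made up most of the sum, and both were called higher as fitted but not in the corrected fit described below (edgeR adjusted p = 0.065 and 0.53). KRT7 was called higher in both fits and KRT19 in neither. EPCAM, CDH1 and VIM were not analysed here. Of 10 immune cell markers 5 were in the table, summing to 72.8 to 77.3 CPM in the controls and 82.8 to 92.7 CPM in the overexpressing cells. Most of this was CD68. CD68 and CSF1R (9, 0 and 4 counts against 34, 22 and 22) were called higher as fitted and not in the corrected fit. CSF1R reached 10 counts only in the overexpressing libraries, through which alone it is in the table. PTPRC, CD3E, MS4A1, LYZ and NKG7 were not analysed here. Of 10 stromal and endothelial markers 6 were in the table, summing to 3.28 to 4.62 and 3.57 to 4.63 CPM. The part of such markers in the results was not tested.

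Of the 10 genes, 4 rose in the overexpressing cells: the RNA helicases DHX58, RIGI and IFIH1 and the DNA-pathway adaptor STING1. As fitted each rose more than 2-fold, and the other 6 genes differed by less than that. DHX58 is in the table only through the group where it is high, as described below. The kinases EIF2AK2 and TBK1 were lower as fitted, and MAVS, TLR3, CGAS and ADAR did not pass the threshold of an adjusted p under 0.05 (edgeR's quasi-likelihood test, Benjamini-Hochberg over all entries tested). Over all 19101 entries 18.3% were called higher and 19.7% lower, and 1.34% were called higher with more than a 2-fold difference. By the labels' own criterion, over 2-fold with an unadjusted p under 0.05, the same 4 genes were higher and none of the 10 lower, against 1.77% and 1.18% of all entries. The median log2 fold change was 0.0043 over the 10 genes and -0.0041 over all entries. In bulk RNA, a change in every cell and a change in a share of the cells cannot be told apart.

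**Figure D1:**
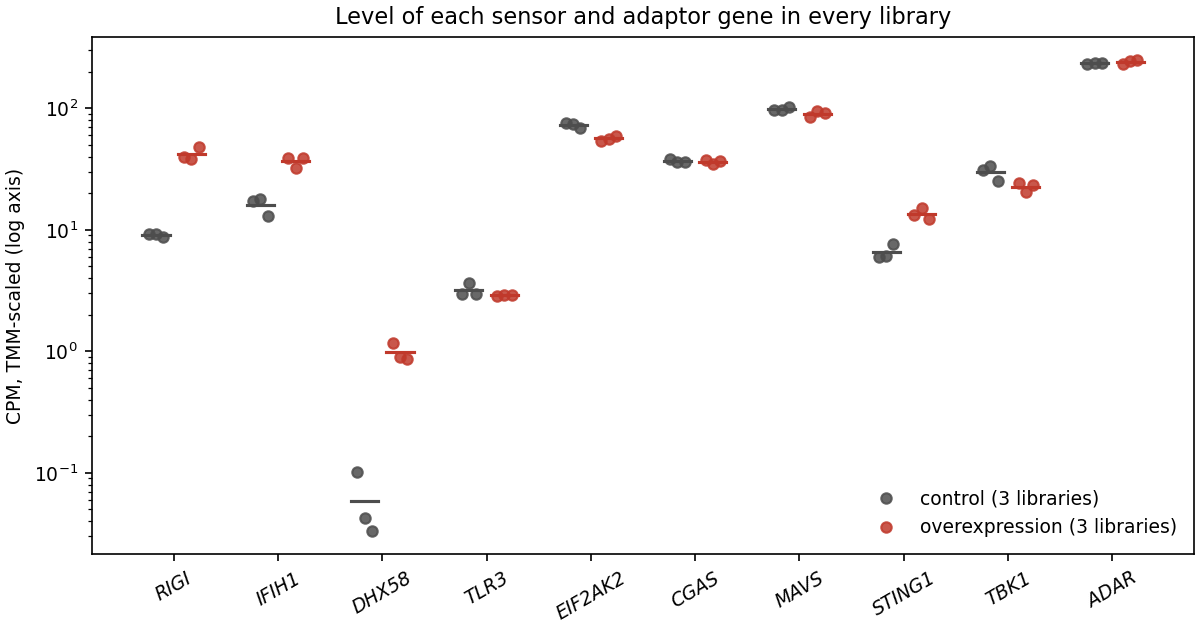
The level of each gene in every library, in CPM scaled by TMM on a log axis, with 3 control libraries in grey and 3 overexpressing libraries in red and a bar at each mean. The red points of RIGI, IFIH1, DHX58 and STING1 lie above all of their grey points, while those of CGAS and ADAR overlap them.

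The fold changes of the whole table followed the GC content of the transcripts, with a Spearman correlation of 0.72 across 10128 entries with a mean log2 CPM above 3, which are not independent replicates. Entries around 37.8% GC had a median log2 fold change of -0.41, and entries around 58.4% GC had one of 0.26. The 10 genes span this range, from 37.0% GC in the transcript of TBK1 to 58.5% in that of DHX58. Whether the trend is technical or a difference between the cells was not tested, and modelling it would remove it in either case. A second fit with GC content and transcript length of each library modelled as offsets is therefore given beside the first. It is called the corrected fit. In it 11.5% of all entries were called higher and 11.1% lower, the correlation with GC content was 0.023, and the calls among the 10 genes became 6 higher and 0 lower (edgeR; also 0 lower at an unadjusted p under 0.05). The 4 genes called higher as fitted were higher in both fits, neither of the 2 lower genes was lower in both, and the median over the 10 genes became 0.23 against -0.013 over all entries.

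**Figure D2:**
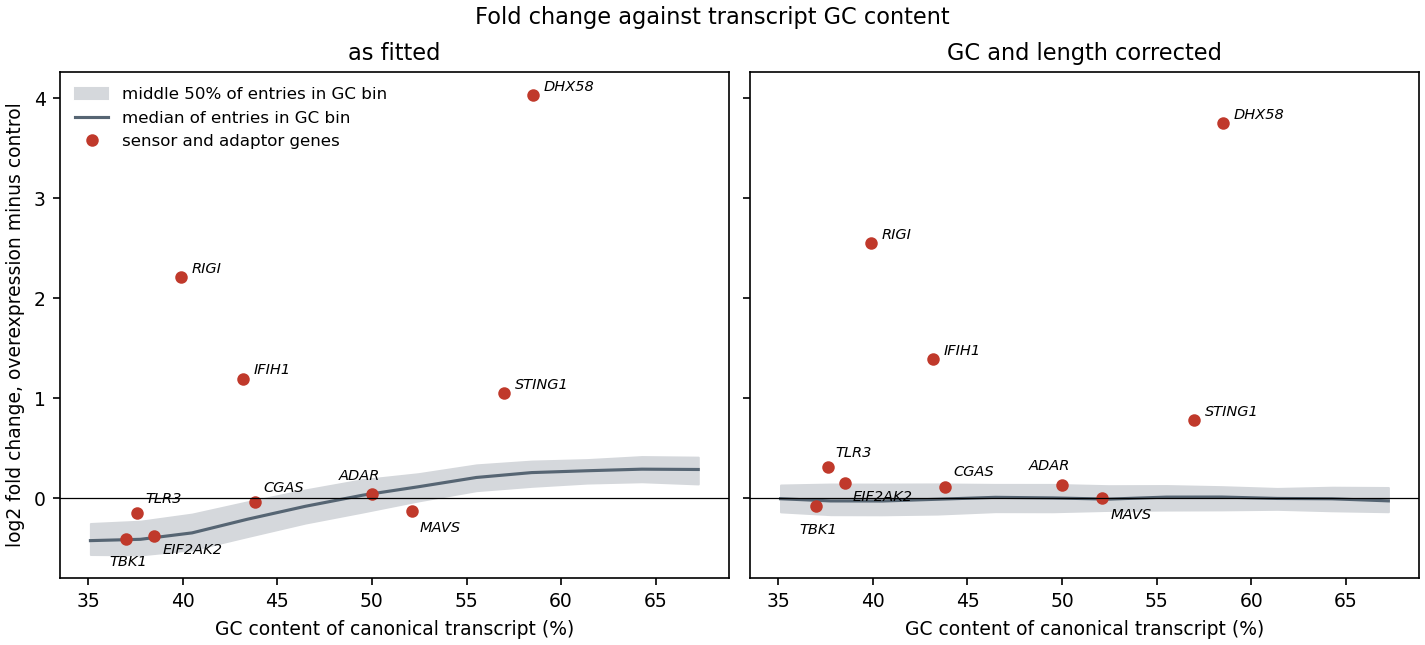
Log2 fold change (overexpression minus control) against the GC content of the canonical transcript in percent, as fitted on the left and corrected on the right. The line and the band are the median and the middle 50% of entries by GC content, and the red points are the 10 genes: EIF2AK2 and TBK1 lie on the line as fitted, while RIGI, IFIH1, DHX58 and STING1 lie above the band in both fits.

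RIGI encodes the sensor of short double-stranded RNA with a 5′ triphosphate. It occupies chromosome 9 from 32455302 to 32526208 on the minus strand (GRCh38, GENCODE 44). Its level was 9.20, 9.24 and 8.76 CPM in controls 1 to 3 and 39.8, 38.3 and 47.6 CPM in overexpressing libraries 1 to 3. The controls were close together, and the lowest overexpressing library stood far above the highest control. Groups that do not overlap were common in the table: 24.7% of all entries had every overexpressing library above every control and 26.0% had every one below. The means were 9.07 ± 0.26 and 41.9 ± 5.0 CPM (SD, n = 3 each), a 4.62-fold rise (log2 fold change 2.21, SE 0.09; edgeR adjusted p = 2.8e-06), and the corrected log2 fold change was 2.55 (SE 0.07). By p-value RIGI ranked 14 among all entries tested. A same-strand gene model, ENSG00000288684, shares 4471 exonic bases with RIGI and had 5 to 32 counts per library, so the authors' counting may have assigned some reads of RIGI to it.

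IFIH1 encodes MDA5, which binds long double-stranded RNA, and occupies chromosome 2 from 162267074 to 162318684 (minus strand). Its level was 17.1, 17.9 and 12.9 CPM in the controls and 39.3, 31.9 and 38.8 CPM in the overexpressing libraries. Control 3 was the lowest of its group and overexpressing library 2 the lowest of the other, and the groups did not overlap. The rise was 2.29-fold, between 15.99 ± 2.66 and 36.7 ± 4.1 CPM (n = 3 each, SD; log2 fold change 1.20, SE 0.13; edgeR adjusted p = 0.00028), and 1.39 on the log2 scale after the correction.

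DHX58 encodes LGP2, described as a modulator of the other RNA helicases, and occupies chromosome 17 from 42101404 to 42112714 (minus strand). It had 9, 4 and 3 counts in the controls and 99, 75 and 78 counts in the overexpressing libraries. Every overexpressing library held several times the count of the highest control, but the control level rests on few counts. All entries of the table reached 10 counts in 3 or more libraries, and DHX58 did so only in the overexpressing group. Its presence in the table is thus not independent of its rise, and its fold change and rank are description only. In CPM this was 0.059 ± 0.037 against 0.980 ± 0.168 (SD, n = 3 each), a 16.3-fold rise with a 95% interval from 7.94-fold to 33.6-fold (edgeR adjusted p = 0.00034). On the log2 scale the difference was 4.03 (SE 0.46) as fitted and 3.76 after the correction. Among all entries tested its log2 fold change ranked 35 from the top, that of RIGI 122 and that of IFIH1 436.

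The makeup of the helicase family also differed between the groups, in uncorrected values given here without a test. The sum of RIGI, IFIH1 and DHX58 was 26.4, 27.2 and 21.7 CPM in the controls and 80.3, 71.2 and 87.3 CPM in the overexpressing libraries. The ratio of RIGI to IFIH1 in CPM was 0.537, 0.517 and 0.677 in the controls and 1.01, 1.20 and 1.23 in the overexpressing libraries. IFIH1 was thus the more counted of this pair in each control and RIGI in each overexpressing library. Per kilobase of transcript, however, the ratio stayed below 1 in every library, at 0.446 ± 0.068 and 0.887 ± 0.091 (SD, n = 3 each). DHX58 remained the minor member in both groups, at 0.154% to 0.382% of the sum in the controls and 0.993% to 1.46% in the overexpressing libraries.

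The promoters of RIGI and IFIH1, which rose, are shown with those of EIF2AK2 and TLR3, which did not rise as fitted, as examples of differing GC content. The trend above was with the GC content of transcripts, and a relation of fold change to promoter composition was not tested. Sequences are from RefSeq (GRCh38.p14), where 7 of the 10 genes had an entry, with 3 starts for ADAR. Each run goes from 200 bases before the RefSeq start to 10 bases after it, 5′ to 3′ on the gene's strand. Each CG dinucleotide is in capitals. These starts differ from the ends of the GENCODE genes. The stretches of EIF2AK2 and TLR3 lie wholly inside the GENCODE extents given below for these genes.
RIGI, chr9:32526187-32526396, minus strand: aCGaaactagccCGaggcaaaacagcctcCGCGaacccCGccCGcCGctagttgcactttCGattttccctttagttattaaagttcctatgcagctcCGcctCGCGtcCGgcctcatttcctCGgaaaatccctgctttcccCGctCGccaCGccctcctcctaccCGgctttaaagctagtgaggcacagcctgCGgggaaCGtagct
IFIH1, chr2:162318675-162318884, minus strand: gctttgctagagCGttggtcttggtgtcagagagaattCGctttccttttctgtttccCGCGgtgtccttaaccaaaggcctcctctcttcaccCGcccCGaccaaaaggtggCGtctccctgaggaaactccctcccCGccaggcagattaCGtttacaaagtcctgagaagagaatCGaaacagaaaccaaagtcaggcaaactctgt
EIF2AK2, chr2:37156971-37157180, minus strand: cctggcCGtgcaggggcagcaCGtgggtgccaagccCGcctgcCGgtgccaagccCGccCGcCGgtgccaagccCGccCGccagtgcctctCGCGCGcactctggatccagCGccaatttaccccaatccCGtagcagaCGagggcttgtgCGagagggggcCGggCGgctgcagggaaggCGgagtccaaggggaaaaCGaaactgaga
TLR3, chr4:186068956-186069165, plus strand: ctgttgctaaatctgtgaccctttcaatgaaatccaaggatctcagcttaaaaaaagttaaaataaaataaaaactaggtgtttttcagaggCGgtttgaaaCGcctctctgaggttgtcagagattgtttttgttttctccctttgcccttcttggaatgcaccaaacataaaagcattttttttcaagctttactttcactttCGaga

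The printed stretches hold 19 CG dinucleotides for RIGI, 10 for IFIH1, 20 for EIF2AK2 and 3 for TLR3. In the whole windows, from 250 bases before to 50 after the start, GC content was 60.3% for RIGI and 50.7% for IFIH1, so the paired helicases lay on either side of the median of 58.7% over 35116 such windows of RefSeq promoters. EIF2AK2 had 72.3% and TLR3 40.3%, the highest and the lowest of the 9 windows. MAVS had 71.7%, TBK1 68.3% and the 3 starts of ADAR 47.7% to 53.0%. Promoter and transcript composition thus differ for TBK1, whose transcript is the poorest in GC of the 10 genes. The windows hold from 5 CG dinucleotides (TLR3) to 35 (TBK1), beside a median of 14 over all windows. These are properties of the reference sequence, and neither methylation nor binding was measured.

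TLR3, the endosomal receptor for double-stranded RNA, occupies chromosome 4 from 186068911 to 186088073 (plus strand). Its level was low, at 2.96, 3.67 and 2.98 CPM in the controls and 2.83, 2.91 and 2.92 CPM in the overexpressing libraries. The overexpressing libraries lay just below the controls without overlapping them, as for 26.0% of all entries. The log2 fold change was -0.15 with a 95% interval from -0.48 to 0.18 (edgeR adjusted p = 0.48) and 0.31 in the corrected fit (adjusted p = 0.16). The fits thus put TLR3 on opposite sides of 0, and it passed in neither.

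EIF2AK2 encodes PKR, which phosphorylates the translation factor eIF2alpha, and occupies chromosome 2 from 37099210 to 37157522 (minus strand). Its level was 76.2, 74.5 and 68.3 CPM in the controls and 53.7, 55.96 and 59.6 CPM in the overexpressing libraries. The groups did not overlap, with the overexpressing libraries lower. As fitted the log2 fold change was -0.37 (SE 0.06; edgeR adjusted p = 0.0013), from 73.0 ± 4.2 to 56.4 ± 3.0 CPM (SD, n = 3 each). In the corrected fit the direction turned, with a log2 fold change of 0.16 (SE 0.04; adjusted p = 0.023). The canonical transcript of EIF2AK2 has 38.5% GC and 9975 bases, and the direction of its difference therefore rests on whether the GC and length trend is removed. Both values are far from the rise of RIGI. EIF2AK2 shares 35 exonic bases with GPATCH11 on the opposite strand, which had 1200 to 2185 counts, and the strandedness of the counting is not given in the sources used here.

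CGAS, the cytosolic DNA sensor, occupies chromosome 6 from 73413515 to 73452297 (minus strand). Its level was 38.5, 36.05 and 36.4 CPM in the controls and 37.4, 34.5 and 36.5 CPM in the overexpressing libraries, and the groups overlapped. The log2 fold change was -0.03 with a 95% interval from -0.17 to 0.10 (edgeR adjusted p = 0.70), which leaves room for a fold change between 0.891 and 1.07. In the corrected fit it was 0.12 (adjusted p = 0.15).

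STING1, the endoplasmic reticulum adaptor that responds to the product of cGAS, occupies chromosome 5 from 139475533 to 139482935 (minus strand). Its level was 5.96, 6.06 and 7.59 CPM in the controls and 13.1, 15.1 and 12.3 CPM in the overexpressing libraries. The highest control was well below the lowest overexpressing library. The means of 6.53 ± 0.92 and 13.5 ± 1.5 CPM (SD, n = 3 each) make a 2.07-fold rise (log2 fold change 1.05, SE 0.13; edgeR adjusted p = 0.00050). Its transcript is rich in GC at 57.0%, and the corrected log2 fold change was smaller, at 0.78 (adjusted p = 0.0014). The adaptor rose where its sensor was not called. The ratio of STING1 to CGAS per kilobase was 0.261 ± 0.042 in the controls and 0.555 ± 0.081 in the overexpressing libraries (SD, n = 3 each). The levels in this ratio are without the correction for GC content and length.

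MAVS, the mitochondrial adaptor of RIG-I and MDA5, occupies chromosome 20 from 3846799 to 3876123 (plus strand). Its level was 96.8, 96.0 and 103 CPM in the controls and 84.0, 95.7 and 91.3 CPM in the overexpressing libraries. Overexpressing library 2 lay just under the lowest control. The log2 fold change was -0.13 with a 95% interval from -0.26 to 0.0013 (edgeR adjusted p = 0.11), and in the corrected fit it was 0.00013 with an interval from -0.11 to 0.11. As a fold change, the interval as fitted ran from 0.838 to 1.00, and MAVS was called in neither fit while the helicases that signal through it rose.

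TBK1, the kinase on which both branches meet, occupies chromosome 12 from 64452090 to 64502114 (plus strand). Its level was 31.2, 33.2 and 25.2 CPM in the controls and 24.2, 20.4 and 23.3 CPM in the overexpressing libraries. Control 3 lay close to the overexpressing libraries. The log2 fold change was -0.40 (SE 0.11; edgeR adjusted p = 0.018), and this call was lost without control 1 (adjusted p = 0.067), control 2 (0.078) or overexpressing library 2 (0.063). It was also lost in the corrected fit, where the log2 fold change was -0.08 (adjusted p = 0.51), and its transcript has the lowest GC content of the 10 genes. A lncRNA on the opposite strand, ENSG00000277895, shares 492 exonic bases with TBK1 and had 7 to 22 counts.

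ADAR occupies chromosome 1 from 154581695 to 154628013 (minus strand) and was the most abundant of the 10 genes. Its level was 232, 237 and 234 CPM in the controls and 230, 246 and 248 CPM in the overexpressing libraries, and the groups overlapped. The log2 fold change was 0.04 with a 95% interval from -0.05 to 0.14 (edgeR adjusted p = 0.48). In the corrected fit ADAR was called higher at a log2 fold change of 0.14 (SE 0.03; adjusted p = 0.013), a 1.10-fold difference. ADAR has a constitutive and an interferon-inducible isoform from different starts, and a count per gene does not separate them.

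**Figure D3:**
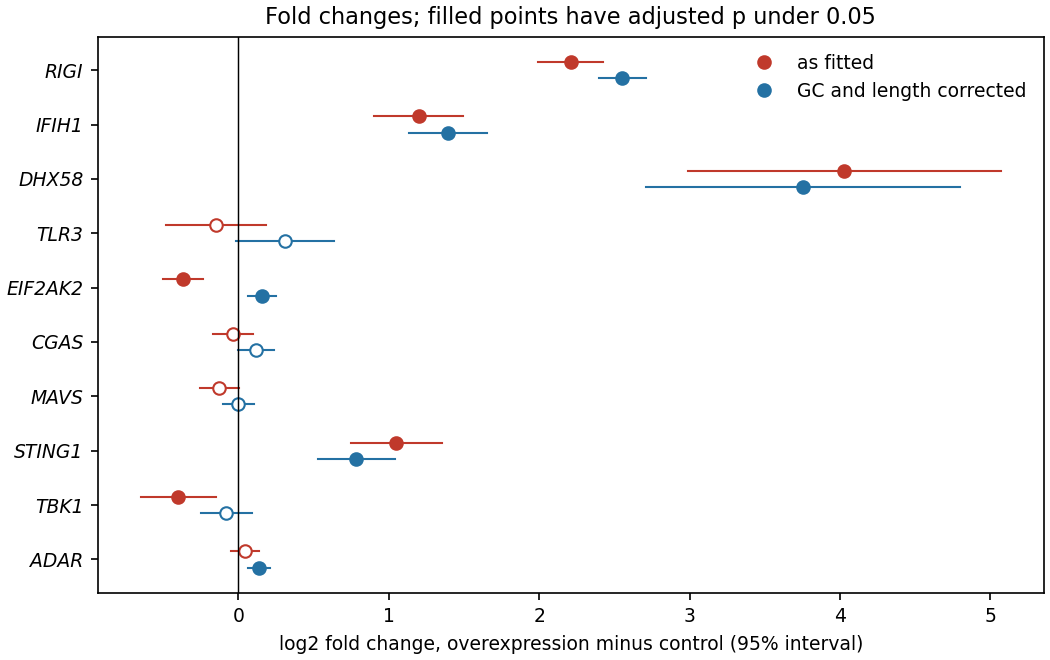
Log2 fold change of each gene with its 95% interval, as fitted in red and corrected for GC content and length in blue, with filled points where the adjusted p is under 0.05. RIGI, IFIH1, DHX58 and STING1 are filled and to the right of 0 in both fits, and EIF2AK2 is filled on opposite sides of 0.

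Per kilobase of canonical transcript, the order of levels changed in its middle. In the controls ADAR was at 35.5 ± 0.3 CPM per kilobase, followed by CGAS at 11.6 ± 0.4, TBK1 at 9.89 ± 1.37, MAVS at 8.41 ± 0.34 and EIF2AK2 at 7.32 ± 0.42 (SD, n = 3). IFIH1 (4.47 ± 0.74), STING1 (3.01 ± 0.42), RIGI (1.96 ± 0.06), TLR3 (0.533 ± 0.067) and DHX58 (0.0227 ± 0.0142) came next. TBK1 and MAVS were the only neighbours in this order whose control libraries overlapped. In the overexpressing cells IFIH1 (10.2 ± 1.2) and RIGI (9.06 ± 1.08) came directly after ADAR and CGAS, and the libraries of CGAS and IFIH1, and of IFIH1 and RIGI, overlapped. MAVS (7.70 ± 0.51), TBK1 (7.50 ± 0.66), STING1 (6.23 ± 0.67) and EIF2AK2 (5.66 ± 0.30) followed, each overlapping the next, before TLR3 (0.480 ± 0.008) and DHX58 (0.378 ± 0.065). RIGI thus passed from rank 8 to rank 4 and EIF2AK2 from rank 5 to rank 8. These ranks use levels without the correction for GC content, under which EIF2AK2 was higher, and ranks of corrected levels were not computed. These levels assume the canonical transcript, which runs to 11731 bases for MAVS, and other isoforms were not resolved.

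Other genes of the sensing pathways, listed by role, were counted in the same fits. Their counts stand beside shares over all entries of 18.3% higher and 19.7% lower as fitted, 11.5% and 11.1% in the corrected fit, and 7.46% higher and 7.32% lower in both. Of 30 genes that assist or restrain the RNA helicases and MAVS, 16 were higher and 9 lower, at a list median of 0.17 (log2), and the corrected fit gave 11 higher and 3 lower with a median of 0.084. Of the rises 8 were called in both fits. DDX60, a helicase-like antiviral protein, rose 2.34-fold from 5.43 ± 0.29 to 12.7 ± 1.6 CPM (SD, n = 3 each; edgeR adjusted p = 0.00024). USP18, which removes the modifier ISG15 and dampens interferon signalling, rose 1.74-fold, and the RNA helicase ZNFX1 rose 1.64-fold. All of these were also higher after the correction (1.66, 0.69 and 0.79 on the log2 scale). The kinase IKBKE, a relative of TBK1, rose 1.48-fold, from 7.51 ± 0.46 to 11.1 ± 0.3 CPM, and the ubiquitin ligase TRIM25, which acts on RIG-I, rose 1.10-fold (corrected log2 fold changes 0.33 and 0.17, adjusted p = 0.045 and 0.0047). The ubiquitin ligase ITCH, which targets MAVS, fell by 0.78 on the log2 scale (-0.33 corrected), and the phosphatase subunit PPP1CC fell by 0.50 (-0.27 corrected). TOMM70, a mitochondrial receptor that binds MAVS, was at -0.26 as fitted and 0.03 corrected.

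Of 23 measured genes around cytosolic DNA sensing, 11 were higher and 7 lower, at a list median of 0.16 (log2), and 5 were higher and 2 lower in the corrected fit with a median of -0.0039. The differences were small. The trafficking protein SURF4 rose 1.30-fold, STEEP1, which promotes exit of STING from the endoplasmic reticulum, 1.25-fold, and the channel subunit LRRC8A 1.30-fold, and all 3 were also called higher in the corrected fit (0.22, 0.36 and 0.20 on the log2 scale). The DNA-dependent kinase PRKDC had control libraries at 1202 ± 16 CPM and overexpressing libraries at 856 ± 39 CPM (SD, n = 3 each). In log2 it fell by 0.49, and by 0.13 after the correction. RAD50 was at -0.60 as fitted and -0.17 corrected (adjusted p = 0.15). G3BP1, a stress granule protein that binds cGAS, turned from -0.40 to 0.14 (adjusted p = 0.041). IFI16, a DNA-binding protein of the interferon response, was low, at 1.17 ± 0.13 and 1.58 ± 0.08 CPM (SD, n = 3 each), and did not pass as fitted (log2 fold change 0.44, edgeR adjusted p = 0.097) but did after the correction (0.67, adjusted p = 0.034). The exonuclease gene TREX1 was not analysed here.

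Around the endosomal receptors, 6 of 12 measured genes were higher and 1 was lower, with a median of 0.29, and 4 were higher and 0 lower after the correction (edgeR; 2 lower at an unadjusted p under 0.05). UNC93B1, which escorts TLR3 to endosomes, rose 1.48-fold (29.8 ± 2.3 against 43.9 ± 1.3 CPM, SD, n = 3 each). IRAK2 rose 1.47-fold and the protease CTSL 1.27-fold. All 3 were higher in both fits (corrected log2 fold changes 0.24, 0.46 and 0.26). IRAK4 was at -0.43 as fitted and -0.16 corrected (adjusted p = 0.083). TLR7, TLR8 and TLR9 were not analysed here.

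Genes that bind double-stranded RNA or act around PKR went mostly the other way as fitted, with 12 of 23 lower and 4 higher and a median of -0.18. The corrected fit gave 7 lower and 3 higher with a median of -0.018, and the 7 lower genes were lower in both. DICER1, which cuts double-stranded RNA, had control libraries at 112 ± 8 CPM and overexpressing libraries at 60.2 ± 7.9 CPM (SD, n = 3 each). In log2 it fell by 0.89 (edgeR adjusted p = 0.00024), and by 0.40 after the correction. Another kinase of eIF2alpha, EIF2AK4, fell by 0.49 (-0.36 corrected), and the phosphatase subunit PPP1R15B by 0.45 (-0.18 corrected). Its stress-induced counterpart PPP1R15A rose 1.89-fold, from 37.0 ± 2.9 to 70.0 ± 3.3 CPM (0.63 on the log2 scale corrected). ILF2 rose 1.08-fold and was higher in both fits (0.16 on the log2 scale corrected). TARBP2 was at 0.35 as fitted and 0.018 corrected, and PRKRA, the protein activator of PKR, at -0.18 as fitted and -0.034 corrected, neither of them called in the corrected fit.

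Among transcription factors that act downstream of the sensors, 8 of 12 measured genes were higher and 1 lower, with a median of 0.32, and the corrected fit had 5 higher and 1 lower with a median of 0.28. IRF7, which amplifies interferon gene expression, rose 2.47-fold from 7.94 ± 0.24 to 19.6 ± 2.1 CPM (SD, n = 3 each; edgeR adjusted p = 8.8e-05; 0.97 on the log2 scale corrected). IRF9 had 54, 157 and 95 counts in the controls and 560, 1068 and 559 in the overexpressing libraries, a 7.70-fold rise with a wide spread in both groups (2.69 on the log2 scale corrected). IRF3, the direct substrate of TBK1, was at 0.26 as fitted and -0.076 corrected (adjusted p = 0.17), so its direction was not settled. ATF2 was at -0.31 as fitted and 0.068 corrected, and the gene called lower in the corrected fit was JUN (-0.29), named after its value was seen.

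Of 11 measured genes of interferons and their receptors, 2 were higher and 2 lower as fitted, close to the shares of 18.3% and 19.7% over all entries, with a median of 0.039, and 1 was higher and 1 lower in the corrected fit (SOCS3 at -0.15, named after its value was seen). IFNB1 and IFNL1, interferon genes that IRF3 and IRF7 act on, had no entry in the table, whose entries each reached 10 counts in 3 or more libraries. A level below that count in both groups and a removal for another reason cannot be told apart here. The receptor chain gene IFNAR1 was at -0.40 as fitted and -0.046 corrected (adjusted p = 0.48), and IFNAR2 was at -0.09 as fitted (adjusted p = 0.42) and -0.022 corrected. IL10RB rose 1.18-fold and was higher in both fits (0.20 on the log2 scale corrected), and the kinase gene TYK2 was at 0.27 as fitted and 0.056 corrected. The epithelial interferon gene IFNE had 25, 18 and 11 counts in the controls and 4, 3 and 0 in the overexpressing libraries. It was called lower as fitted (edgeR adjusted p = 0.049) and not in the corrected fit (adjusted p = 0.10). IFNE reached 10 counts only in the controls, through which alone it is in the table.

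**Figure D4:**
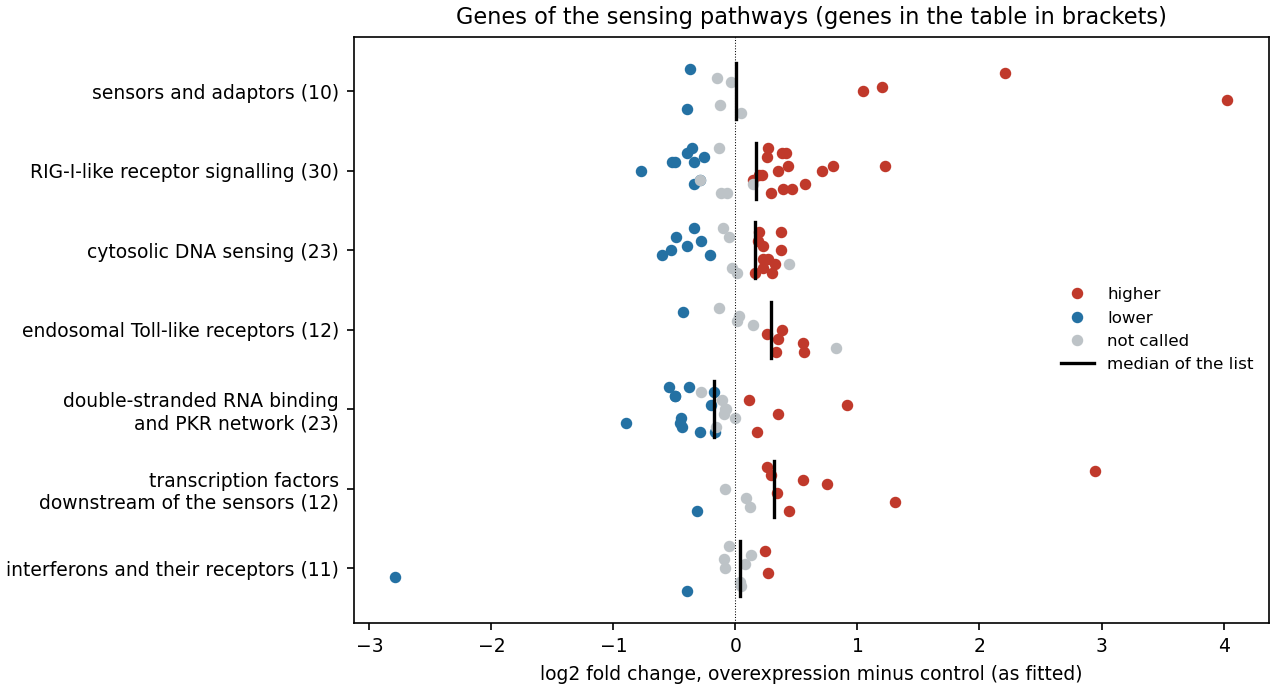
Log2 fold change as fitted for the 10 sensors and adaptors and for the measured genes of 6 other lists, with red for genes called higher, blue for lower and grey for not called, and a black bar at each list's median. The largest rises are DHX58, IRF9 and RIGI, and the list around PKR has its median below 0.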

How the data were processed

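Per the labels' protocols, the authors used TRIzol for RNA extraction, fastp for read trimming, HISAT2 for alignment (GRCh38), StringTie for assembly and quantification, and edgeR for their tests. The deposited unit was the raw, unnormalized count, and how gene counts were taken is not given in the sources used here. Each entry reached 10 counts in 3 or more libraries. Columns were assigned by sample title, and groups came from the labels. The members, the lists of pathway genes, the rule for named genes (up to 3 rises and 3 falls of smallest p per list with no overlap of the groups, plus fixed names) and the alternatives were chosen with earlier results of these data known. A gene that the naming rule selects is not reported here.

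Counts were fitted with edgeR 4.0.16 (R 4.3.3; TMM scaling; quasi-likelihood F-test; filterByExpr at min.count 10 and min.total.count 15), with the group alone in the model and Benjamini-Hochberg adjustment over all 19101 entries. CPM used TMM-scaled library sizes. The SE was the log2 fold change over the square root of F. The corrected fit used natural splines with 5 degrees of freedom on GC content and log2 length of GENCODE 44 canonical transcripts, known for 19067 of 19201 entries, fitted on entries with a mean log2 CPM above 1. Both fits were also run on simulated counts, with and without an added linear GC trend and with no length effect. Their outcome is not given here, and this setting does not test the corrected fit on the trend of these data. Symbol and Ensembl ID named different genes in 8 entries, and these were left out of the lists. VIM was thereby removed from the markers listed for the carcinoma line. Alternatives were DESeq2 1.42.0, limma-voom (limma 3.58.1), other scalings and filters, the labels' 2-fold criterion, a replicate block and leaving out each library. At these depths a gene at well under 1 CPM, such as DHX58 in the controls, rests on few counts.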

Additional observations from a re-analysis of the deposited data

How the results depend on the processing

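RIGI, IFIH1 and STING1 kept their direction and an adjusted p under 0.05 in each of 15 alternatives. Their log2 fold changes ran from 2.11 to 2.55, 1.07 to 1.40 and 0.78 to 1.17. DHX58, at 3.76 to 4.64, also did so, but it is in the table only through the overexpressing libraries. Its values in the alternatives, the one without a filter included, are therefore description only. With the GC and length correction the log2 fold changes were 0.00013 for MAVS, 0.31 for TLR3, 0.16 for EIF2AK2, 0.12 for CGAS, -0.080 for TBK1 and 0.14 for ADAR, of which TBK1 and ADAR kept their sign, and TOMM70 (0.031), G3BP1 (0.14), ATF2 (0.068) and IRF3 (-0.076) changed sign. The correction left 2203 entries higher and 2118 lower, 0 of the 10 genes lower, 3 RNA-helicase pathway genes lower, 5 and 2 DNA-sensing genes higher and lower, 0 endosomal genes lower, 7 genes around PKR lower, 5 transcription factors higher, and 1 and 1 interferon and receptor genes. Deviations from the group mean correlated at -0.073, -0.26 and -0.44 between same-numbered libraries of the 2 groups. Between differently numbered libraries they correlated at -0.15 to 0.36. Deviations within a group of 3 libraries constrain each other, so these values cannot decide whether samples were paired. A replicate block gave 2681 entries higher and 3014 lower, 6 DNA-sensing genes higher, 2 genes around PKR higher, and 1 and 1 interferon and receptor genes. The replicate block with the GC and length correction gave 1744 and 1611 entries, 0 of the 10 genes lower, 9 and 2 RNA-helicase pathway genes, 3 and 2 DNA-sensing genes, 0 endosomal genes lower, 4 genes around PKR lower, 5 transcription factors higher, 0 and 0 interferon and receptor genes, and log2 fold changes of 0.31 for TLR3, 0.16 for EIF2AK2 (adjusted p = 0.063), 0.12 for CGAS, -0.078 for TBK1, 0.14 for ADAR, 0.031 for TOMM70, 0.14 for G3BP1, 0.065 for ATF2 and -0.076 for IRF3. Library size alone put MAVS at -0.18 (edgeR adjusted p = 0.049) and ADAR at -0.0061, with 2 endosomal genes lower and 2 genes around PKR higher. By the labels' criterion of over 2-fold with an unadjusted p under 0.05, 338 entries were higher and 226 lower. Lower were 0 of the 10 genes, and 0 genes each of the RNA-helicase pathway, DNA-sensing, endosomal, PKR and transcription factor lists. Higher were 1 RNA-helicase pathway gene and 2 transcription factors, and 0 genes of the DNA-sensing, endosomal, PKR and interferon lists. The 1 interferon gene that was lower was IFNE, which is in the table only through the controls. No filter, a minimum count of 50 and DESeq2 each left 1 interferon or receptor gene lower.

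Leaving out each library in turn gave 1 to 2 of the 10 genes lower and TBK1 at -0.51 to -0.32. The lists ranged from 5 to 10 RNA-helicase pathway genes lower, 7 to 11 DNA-sensing genes higher, 1 to 2 endosomal genes lower, 2 to 3 genes around PKR higher, 1 to 2 transcription factors lower, and 1 to 2 and 1 to 1 interferon and receptor genes higher and lower. The RNA-helicase pathway genes that were lower numbered 5 without control 2, overexpressing library 1 or overexpressing library 2, and the DNA-sensing genes that were higher numbered 7 without control 1, control 2 or overexpressing library 1. The cause of these changes was not tested. The groups have 3 samples each, so no outlier test was made.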
